A study of Mus musculus with 6 samples.

Results

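Serpins are a family of proteins, most of them protease inhibitors, and 6 of them that are known from glia, fibroblasts and neurons were followed by name in the deposited count table: Serpinf1, Serpine2, Serpinh1, Serpini1, Serpinb6a and Serpinb9. All 6 have a row, among 34 genes whose name begins with Serpin and 20173 genes in all. Male mice aged 3 weeks, on a C57BL/6J background, were the source of the cells, which were kept for 4 to 5 days in a neural medium with B27 before RNA was taken. Slit2fl/fl mice, labelled SLIT2f/f, gave 3 libraries, and Slit2th mice, labelled SLIT2-knockout, gave the other 3. Both genotypes carry floxed Slit2, and Slit2th mice have in addition a Cre recombinase driven by the Th (tyrosine hydroxylase) promoter, which is active in catecholamine-producing cells. The labels call the tissue sympathetic ganglion and the cells neurons, and they do not say whether animals were pooled for a library. The study's sequencing method likewise names sympathetic chains as the source, while the dissection protocol it points to speaks of dorsal root neurons. Nothing ties a library to a single animal or culture, so p-values measure only the spread between these libraries.

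Serpins fold around an exposed reactive centre loop, which a target protease cuts as if it were substrate. The loop then inserts into the body of the inhibitor and the protease is trapped and inactivated, so that each inhibitor molecule is used once. Serpine2 (protease nexin-1, secreted by glia and fibroblasts) inhibits thrombin and the plasminogen activators. Serpini1 (neuroserpin, secreted by neurons) inhibits tissue plasminogen activator. Serpinb6a and Serpinb9 lack a classical signal peptide and act inside cells, Serpinb9 against granzyme B. The remaining pair kept the fold but do not inhibit proteases. Serpinf1 encodes PEDF (pigment epithelium-derived factor), a secreted factor for neurons and a brake on blood vessel growth, and Serpinh1 encodes HSP47, the collagen chaperone of the endoplasmic reticulum.

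This division can be read in the coding sequences, which are shown because it sets the roles by which the genes are ordered here. The start of the reactive loop, called the hinge, was searched towards the 3′ end of each member's longest annotated coding sequence (GENCODE M21, GRCm38) as Glu, any residue, Gly, Thr or Ser, any 2 residues, and a small residue. It was found once in each of the 4 inhibitors, where capitals mark the codons of Gly and of Thr or Ser, and these letters were not found in Serpinf1 or Serpinh1.
Serpine2, minus strand, chr1:79799478-79799498: gaagatGGAACCaaagcttcg
Serpini1, plus strand, chr3:75637974-75637994: gaagaaGGGTCAgaagccgct
Serpinb6a, minus strand, chr13:33918179-33918199: gaggagGGCACAgaggctgca
Serpinb9, plus strand, chr13:33015693-33015713: gaggaaGGCACAgaggctgca
Serpinh1 instead ends in the codons of a retention signal of the endoplasmic reticulum (Arg, Asp, Glu, Leu, in capitals), followed by its stop codon.
Serpinh1, minus strand, chr7:99346120-99346134: CGAGATGAGTTGtag

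Library totals ran from 1533367 to 3155406 counts in Slit2fl/fl and from 1255939 to 1999485 in Slit2th, and 3 counts, taken as the floor of detection, correspond to 0.951 to 2.39 CPM (counts scaled to a common library size); the floor covers counting error only. Replicate 1 of either genotype stood apart: across genes, log2 CPM gave Pearson's r of 0.842 to 0.869 between replicate 1 and its group, and 0.938 and 0.965 between replicates 2 and 3. Between Slit2fl/fl replicate 1 and Slit2th replicate 1 it was 0.818. Slit2 itself measured 44.39, 54.99 and 43.71 CPM across the Slit2fl/fl libraries, against 14.96, 11.43 and 15.21 CPM across those of Slit2th, without overlap. In the edgeR test described below its log2 fold change was -1.78 with an adjusted p of 0.422, so even Slit2 did not pass. Of 25 neuron markers 23 are in the table and 7 passed the filter (Tubb3, Map2, Stmn2, Uchl1, Gap43, Elavl3 and Slc18a2), while others, among them Th, Rbfox3 and Nefh, had no count in any library. The neuron markers summed to 213 to 603 CPM per library, against 6106 to 20270 CPM for the 17 glia markers and 3100 to 5615 CPM for the 13 fibroblast markers. Some neuron transcripts were thus present, without those of Th, the enzyme that defines catecholamine neurons. In such whole cultures, fewer cells of a type and less RNA per cell cannot be told apart.

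The 6 serpins covered a wide range of abundance. Per kilobase of exon, Serpinh1 was the most abundant on average (76.3 ± 8.04 CPM per kilobase, SD over the 6 libraries), then Serpinb6a (50.8 ± 31.2), Serpine2 (20.1 ± 6.37), Serpinf1 (12.9 ± 23.9), Serpinb9 (3.65 ± 1.40) and Serpini1 (0.241 ± 0.344). Serpinh1 was first in 5 of 6 libraries, and Serpini1 was last in 6 of 6. The length is that of all annotated exons of a gene merged, 2443 bases for Serpinh1 and 5409 for Serpinb6a. It can exceed that of the transcripts present, and the order depends on it. By CPM alone, Serpinb6a (mean 274.7) lay above Serpinh1 (186.3). The ranges of Serpinh1 (63.8 to 86.9 CPM per kilobase) and Serpinb6a (21.3 to 105.8) overlap, as do those of Serpinb6a and Serpine2 (13.1 to 30.1). Serpinf1, at 1.37 to 61.6 CPM per kilobase, spanned the levels of Serpinb9 and Serpine2. The order of these middle genes therefore changed with the library, whereas every library placed Serpini1 below Serpinb9.

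**Figure D1:**
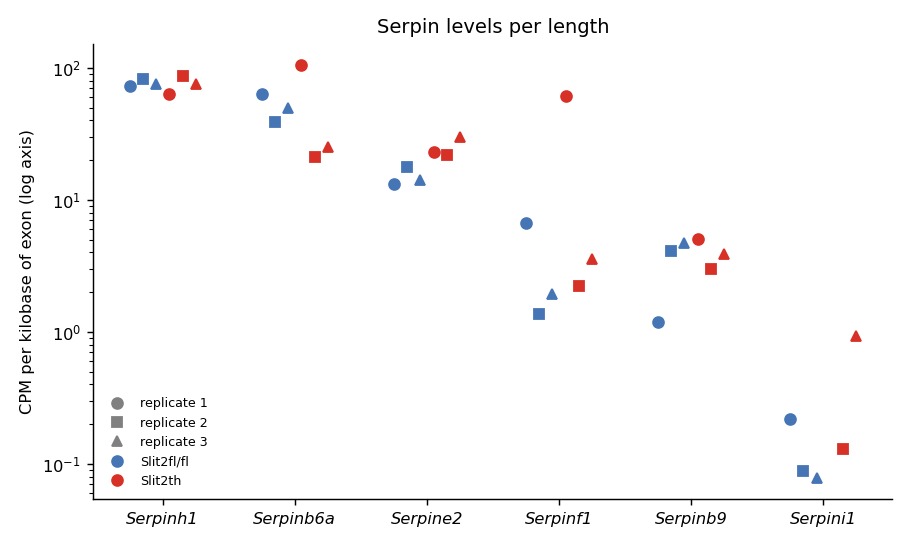
Level of each serpin in CPM per kilobase of exon (log axis), with 1 point per library; the zero of Serpini1 in Slit2th replicate 1 cannot be drawn on this axis. Serpinh1 keeps within 63.8 to 86.9, while Serpinf1 runs from 1.37 to 61.6 and exceeds 6.63 in 1 library only.

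The comparison of Slit2th with Slit2fl/fl libraries asks which transcripts of whole cultures differ when the mice carry Slit2 deleted by Th-driven Cre. All 6 members were among the 12152 genes that entered the quasi-likelihood test of edgeR, and 0 of 6 had a Benjamini-Hochberg adjusted p under 0.05, the same as for all genes (0% called). At an unadjusted p under 0.05 there was 1 member, Serpine2, where 10.8% of all tested genes were called. Serpine2 was also the 1 member whose groups did not overlap, with Slit2th above; 8.72% of tested genes lay wholly above and 9.74% wholly below. With 1 of 6, both counts are close to these background shares and are no result about the members. The median log2 fold change was 0.50 over the 6 members, 4 of them positive, and -0.047 over all tested genes. DESeq2, edgeR's exact and likelihood ratio tests and limma-voom also called 0 of the 6 (34, 17, 46 and 0 genes in all), although DESeq2 gave Serpinf1 and Serpini1 no adjusted p.

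**Figure D2:**
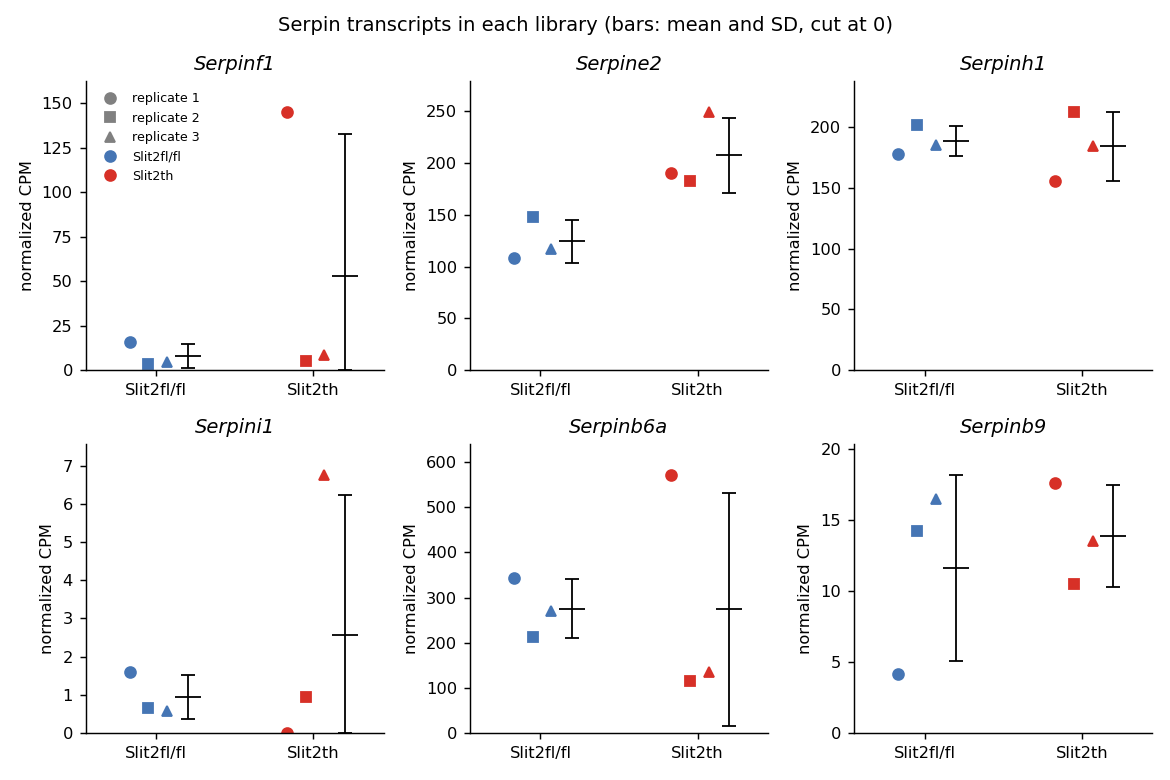
Normalized CPM of each serpin by genotype, with 1 point per library (circles, squares and triangles for replicates 1, 2 and 3) and the mean and SD of 3 libraries, drawn down to 0 at most. The groups separate for Serpine2 only, and Slit2th replicate 1 stands far above the rest for Serpinf1 (145.2 CPM) and Serpinb6a (572 CPM).

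Among the secreted inhibitors, Serpine2 (ENSMUSG00000026249, minus strand, chr1:79794197-79861180) was higher in every Slit2th library. Replicates 1, 2 and 3 of Slit2fl/fl measured 108.6, 148.2 and 116.9 CPM, and those of Slit2th 191.0, 182.8 and 249.5 CPM; values follow this order of replicates throughout. The lowest Slit2th library thus lay above the highest Slit2fl/fl library. The means were 124.6 ± 20.9 and 207.8 ± 36.4 CPM (SD, n = 3 each). In edgeR's quasi-likelihood test this was 0.74 on the log2 scale (standard error 0.32, 95% interval 0.008 to 1.47), with an edgeR adjusted p of 0.462 (0.0479 unadjusted). A two-sided exact permutation test of log2 CPM gave p = 0.10, the smallest that 3 libraries against 3 allow. Leaving out libraries gave log2 values of 0.54 to 0.93; dropping both replicates 1 gave 0.69, with an adjusted p of 0.12 by the same edgeR test. Of its exonic sequence 0.30% of 50-base words occur in other genes, and no other gene overlaps its exons.

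Summed glia and fibroblast markers also separated the groups, with Slit2th above. Summed over genes, glia markers reached 6106 to 12010 CPM per Slit2fl/fl library and 13650 to 20270 CPM per Slit2th library, and the summed fibroblast markers 3100 to 3996 and 4097 to 5615 CPM, without overlap in either list. By single genes the signs of the glia list were mixed: 5 of 15 tested genes lay above 0 on the log2 scale and 10 below (median -0.30, and 0.17 without replicate 1 of both groups), while 9 of 11 fibroblast markers lay above (median 0.42). No marker of either list lacked counts in every library, and their part in the Serpine2 difference was not tested.

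The protease side was read from a list of 10 targets of serpins in general, of which 7 are in the table and 5 were tested. Of these 5, Plat and Plau are targets of Serpine2 and Gzmb is that of Serpinb9. Ctsl and Prss23 are not assigned to a member here. All 5 had a positive log2 fold change (median 0.56, against -0.047 over all genes) and 0 passed the adjusted threshold. Plau and Gzmb had few counts, at most 5 and 14 in a library, so their signs are uncertain. Plat, the tissue plasminogen activator that Serpine2 and Serpini1 inhibit, measured 52.4, 60.2 and 77.8 CPM across the Slit2fl/fl libraries, against 111.8, 115.2 and 115.5 CPM across those of Slit2th. The groups do not overlap, with a log2 fold change of 0.85 (standard error 0.33, unadjusted p = 0.0279, adjusted p = 0.430 in edgeR's fit). The ratio of inhibitor to protease transcript did not separate the groups: Serpine2 per kilobase was 1.56, 1.85 and 1.13 times Plat per kilobase for Slit2fl/fl libraries, and for Slit2th 1.29, 1.20 and 1.63 times, which overlap (two-sided exact permutation test of the log2 ratio, p = 0.70). Plau, the urokinase that Serpine2 also inhibits, stayed at or below 2.82 CPM in every library. Thrombin (F2), a further target, had no count in Slit2th and 2, 1 and 5 counts in Slit2fl/fl, of which the first pair lie under the floor. Ctsl and Prss23, the remaining proteases of the list above 10 CPM, gave 0.56 and 0.33 on the log2 scale, with edgeR adjusted p-values of 0.527 and 0.787. The groups of Ctsl do not overlap either, at 491.5 to 713.0 CPM for Slit2fl/fl and 816.0 to 1035 CPM for Slit2th. Those of Prss23 overlap. Of the 7 listed genes found, 2 lay wholly above in Slit2th and 1 wholly below. Among all tested genes 8.72% lay wholly above and 9.74% wholly below.

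Serpini1 (ENSMUSG00000027834, plus strand, chr3:75557547-75643495), the neuronal inhibitor, was close to undetected, with 21 counts in all 6 libraries. Slit2fl/fl libraries held 5, 1 and 1 of these counts, and Slit2th libraries 0, 2 and 12. Only Slit2fl/fl replicate 1 and Slit2th replicate 3 exceeded the floor of 3 counts, so the groups overlap. It passed the filter of 1 CPM in 3 libraries narrowly, since the third of these libraries, Slit2th replicate 2, held 2 counts. Its log2 fold change of 1.35 (95% interval -1.24 to 3.94, adjusted p = 0.641 in edgeR's test) has 12 of the 21 counts behind it in Slit2th replicate 3. A difference was not detectable at this depth. Neuron markers, given above, were also low, and their part in this level was not tested.

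Serpinf1 (ENSMUSG00000000753, minus strand, chr11:75409769-75422701), the secreted factor PEDF, varied most of the 6 genes. It measured 15.7, 3.23 and 4.54 CPM across the Slit2fl/fl libraries, against 145.2, 5.24 and 8.45 CPM across those of Slit2th. Replicate 1 was the highest library of each genotype, and Slit2fl/fl replicate 1 lay above Slit2th replicates 2 and 3. The highest library was 44.9 times the lowest. The means of 7.81 ± 6.82 and 53.0 ± 79.9 CPM (SD, n = 3 each) gave a log2 fold change of 2.67 (standard error 1.19, 95% interval -0.026 to 5.37, adjusted p = 0.465 in edgeR's test), and the exact permutation test p = 0.50. Dropping Slit2th replicate 1 turned the log2 value to -0.25, and dropping both replicates 1 gave 0.77. In Slit2th replicate 1 Serpinf1 made up 12.1% of all serpin counts, against 0.335 to 1.74% in the other 5.

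Markers of macrophages were also highest in Slit2th replicate 1. All 15 macrophage markers are in the table with counts, with sums of 33.5 to 128.4 CPM per Slit2fl/fl library and of 129.5 to 670.7 CPM per Slit2th library, the last value in replicate 1. Of 11 tested, 11 lay above 0 on the log2 scale (median 2.15). The median was 0.27 over the 8 tested without Slit2th replicate 1, and 1.44 over the 7 tested without replicate 1 of both groups. Glia markers too were highest in that library, at 20270 CPM. Neuron markers stood at 213 CPM there, near the 218.7 to 227.1 CPM of the remaining libraries except Slit2fl/fl replicate 1 (603 CPM). The part of these cells in the Serpinf1 value was not tested.

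PEDF and serpin complexes act through cell surface receptors. Of 11 receptor genes listed, 10 were tested, 3 higher and 7 lower in Slit2th (median log2 fold change -0.16), and 0 passed. Pnpla2, a lipase that binds PEDF, averaged 9.97 ± 5.20 CPM for Slit2fl/fl and 5.23 ± 2.38 CPM for Slit2th (SD, n = 3 each; edgeR adjusted p = 0.556). Rpsa, which encodes the laminin receptor that binds PEDF and is also a ribosomal protein, measured 665.9, 306.7 and 330.9 CPM across the Slit2fl/fl libraries, against 586.2, 162.8 and 172.9 CPM across those of Slit2th. Both replicates 1 were higher than the other 4 libraries, so the groups overlap (log2 fold change -0.50, adjusted p = 0.723 in edgeR's test). Without replicate 1 of both groups the log2 fold change was -0.94 (adjusted p = 0.0145 in the same test), where 3.29% of all tested genes passed. Rpsa has near-identical pseudogenes, so its counts are uncertain. Lrp1, which clears serpin and protease complexes, ran from 12.5 to 22.4 CPM for Slit2fl/fl and from 14.96 to 26.5 CPM for Slit2th, which overlap. F2r, the thrombin receptor, was at 2.24 and 3.52 CPM in the replicates 1 and at 21.6 to 41.4 CPM in the other 4 libraries.

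Serpinh1 (ENSMUSG00000070436, minus strand, chr7:99345376-99353239), the collagen chaperone, was the steadiest of the 6 genes. It measured 177.9, 201.9 and 185.6 CPM across the Slit2fl/fl libraries, against 155.8, 212.4 and 184.2 CPM across those of Slit2th. The highest library was 1.36 times the lowest, and the highest and the lowest are both Slit2th. The means were 188.5 ± 12.2 and 184.1 ± 28.3 CPM (SD, n = 3 each), or -0.03 on the log2 scale (95% interval -0.73 to 0.66, adjusted p = 0.970 in edgeR's test). The sign of this small value changed when some libraries were left out, within -0.14 to 0.08. The interval leaves room for a difference of up to 0.73 on the log2 scale.

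Of the collagens listed as clients of Serpinh1, all but Col4a2 lay above 0 on the log2 scale. The folding enzymes that work with Serpinh1 lay on both sides, with P4ha1, P4ha2, P4hb, Plod1, Plod3 and Fkbp10 below 0. Of 20 such genes listed and tested, 13 were higher and 7 lower in Slit2th (median log2 fold change 0.29), and 0 passed the adjusted threshold. In 2 of the 20 every Slit2th library lay above, and in 2 every one lay below. Among all tested genes these shares were 8.72% and 9.74%, so the separations named below are no result about the list. Col1a2, the most abundant, averaged 1675 ± 301.5 CPM for Slit2fl/fl and 2241 ± 421 CPM for Slit2th, and Col1a1 398.8 ± 65.9 and 488.8 ± 66.7 CPM (SD, n = 3 each). Col5a2 measured 327, 753 and 671 CPM across the Slit2fl/fl libraries, against 887, 815 and 796 CPM across those of Slit2th, so that every Slit2th library was above (log2 fold change 0.51, adjusted p = 0.599 in edgeR's test). Col3a1, a fibrillar collagen, measured 50.1, 159 and 81.2 CPM across the Slit2fl/fl libraries, against 158 CPM in replicate 1, 215 in replicate 2 and 265 in replicate 3 of Slit2th, so that the groups overlap by a narrow margin (log2 fold change 1.14, unadjusted p = 0.0359, adjusted p = 0.448 in edgeR's test). Col4a1, a chain of basement membrane collagen, ran from 80.8 to 161.7 CPM for Slit2fl/fl and from 131.2 to 210.1 CPM for Slit2th, which overlap. Its log2 fold change was 0.34 (adjusted p = 0.723 in edgeR's test), and 0.21 without replicate 1 of both groups. Col4a2, a further chain of this collagen, lay the other way. The Slit2fl/fl libraries of Col4a2 measured 252, 120 and 152 CPM and its Slit2th libraries 49.3, 57.1 and 65.9 CPM, without overlap. Its log2 fold change was -1.60 (standard error 0.38, adjusted p = 0.422 in edgeR's test), and -1.15 without replicate 1 of both groups (adjusted p = 0.0140), where it was the 1 gene of 20 in this list that passed, against 3.29% of all genes tested. Fkbp10, a folding enzyme of the endoplasmic reticulum, was also lower in every Slit2th library (1.76, 3.81 and 11.3 CPM, against 18.5, 11.7 and 17.0 CPM, log2 fold change -1.45, edgeR adjusted p = 0.462). The value of Slit2th replicate 1 rests on 2 counts, under the floor. Without replicate 1 of both groups the log2 fold change of Fkbp10 was -0.97 (adjusted p = 0.403 in edgeR's test). Col1a1, Col1a2 and Col3a1 are also among the fibroblast markers.

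Serpinb6a (ENSMUSG00000060147, minus strand, chr13:33917918-34002794), an inhibitor inside cells, had the highest mean CPM of the 6. It measured 343, 212 and 270 CPM across the Slit2fl/fl libraries, against 572, 115 and 135 CPM across those of Slit2th. Slit2th replicate 1 was the highest library of all and the other Slit2th libraries the lowest, so the groups overlap with nearly equal means, 275.1 ± 65.5 and 274.2 ± 258.2 CPM (SD, n = 3 each). The log2 fold change was -0.008 (95% interval -1.36 to 1.34, adjusted p = 0.996 in edgeR's test). Without Slit2th replicate 1 it was -1.13 (adjusted p = 0.368), and without replicate 1 of both groups -0.96 (standard error 0.21, adjusted p = 0.0232 in edgeR's test), so that Serpinb6a was then the 1 member of 5 tested past the threshold, where 377 of all 11473 genes tested (3.29%) passed. Set side by side by number, which was not taken to pair the libraries, Slit2th was higher in replicate 1 and lower in replicates 2 and 3.

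The counts of Serpinb6a cannot be assigned with certainty. Of the 50-base words in its transcripts 25.1% also occur in other genes: 12.5% in Nqo2, 8.52% in 1110046J04Rik and 3.39% in Ripk1, which overlap its exons on the opposite strand. Whether reads were counted by strand is not stated. The antisense gene 1110046J04Rik measured 14.1, 5.82 and 4.54 CPM across the Slit2fl/fl libraries, against 111.8, 6.67 and 3.38 CPM across those of Slit2th, so it was highest in the same library as Serpinb6a. Nqo2 ran from 9.05 to 16.6 CPM and Ripk1 from 27.0 to 44.0 CPM, below Serpinb6a in every library. The part of the overlap in the Serpinb6a values was not tested. Its neighbours Serpinb6b and Serpinb6c, which share 0.14% and 0.37% of its 50-base words, had at most 12 counts in a library.

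Serpinb9 (ENSMUSG00000045827, plus strand, chr13:33003250-33017957), the granzyme B inhibitor, was low and did not separate the groups. It measured 4.15, 14.2 and 16.5 CPM across the Slit2fl/fl libraries, against 17.6, 10.5 and 13.5 CPM across those of Slit2th. Slit2fl/fl replicate 1 was the lowest library, and the other 5 lay between 10.5 and 17.6 CPM. The means were 11.6 ± 6.56 and 13.9 ± 3.58 CPM (SD, n = 3 each), or 0.27 on the log2 scale (95% interval -1.02 to 1.56, adjusted p = 0.859 in edgeR's test), which was -0.16 without Slit2fl/fl replicate 1. With 13 to 29 counts per library, this interval leaves room for a difference of either sign, so a lack of difference is not shown. Its target Gzmb, a protease of cytotoxic lymphocytes, was at 1.70 to 5.63 CPM, and the 2 lymphocyte markers in the table, of 6 listed, summed to at most 4.401 CPM.

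Of the 28 other serpins in the table, 13 had no count, 8 had 1 to 10 counts over all libraries, and 7 were tested, 4 of them higher and 3 lower in Slit2th and 0 past the adjusted threshold. Serping1 and Serpinb8 are described here, both with a mean above 10 CPM. Serping1, the C1 inhibitor of complement and contact proteases, measured 197, 305 and 118 CPM across the Slit2fl/fl libraries, against 42.3, 82.9 and 68.2 CPM across those of Slit2th. The groups do not overlap, Slit2th being the lower, with a log2 fold change of -1.68 (standard error 0.45, unadjusted p = 0.00439, adjusted p = 0.422 in edgeR's test). Of all tested genes 9.74% lay wholly below in this way. Without replicate 1 of both groups the same test gave -1.50 (adjusted p = 0.0320), where 3.29% of all tested genes passed. It gave -1.56 without replicate 2 of both groups (adjusted p = 0.618) and -2.00 without replicate 3 of both (adjusted p = 0.821). Serpinb8 stood at 16.5 ± 4.36 and 18.3 ± 4.79 CPM (SD, n = 3 each, adjusted p = 0.887 in edgeR's test with all libraries).

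**Figure D3:**
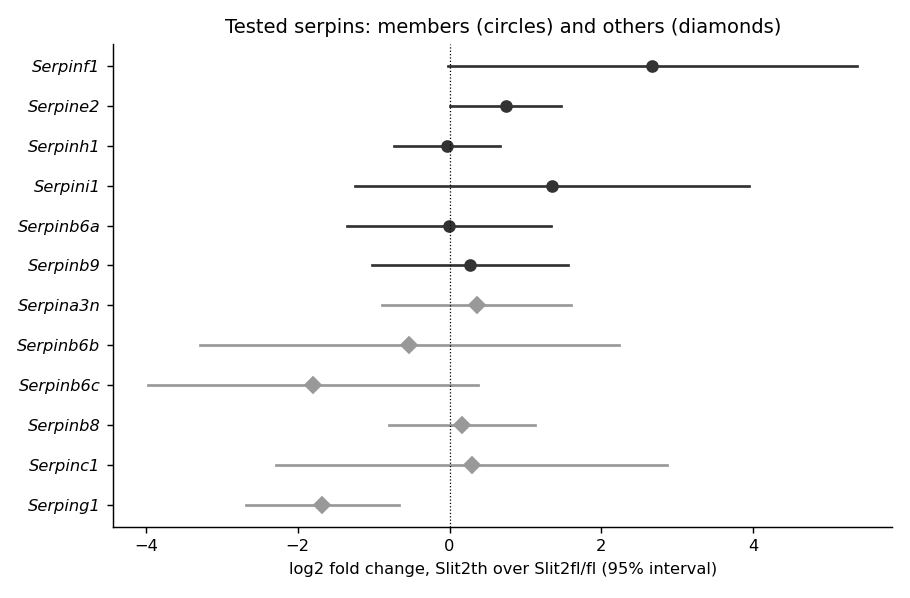
Log2 fold change of Slit2th over Slit2fl/fl in edgeR's fit, with its 95% interval, for the 6 members (circles) and for other tested serpins (diamonds). Serpine2 lies just above 0 at its lower bound (0.008), Serping1 lies wholly below 0, and Serpinf1 and Serpini1 have the widest intervals of the members.

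The make-up of the serpin transcripts was also read as the share of each gene in all serpin counts of a library. Summed over the 34 genes, serpins took 775 to 967 CPM per Slit2fl/fl library and 704 to 1201 CPM per Slit2th library. Serpine2 took 12.1, 15.3 and 15.1% of the serpin counts across Slit2fl/fl libraries and 15.9, 25.96 and 32.6% across Slit2th libraries, while Serping1 was 22.0, 31.6 and 15.2% and then 3.52, 11.8 and 8.90%. Serpinb6a took 47.7% in Slit2th replicate 1 and 16.4 and 17.7% in the other Slit2th libraries. Shares within a library sum to the whole, so a high gene lowers the share of the others.

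**Figure D4:**
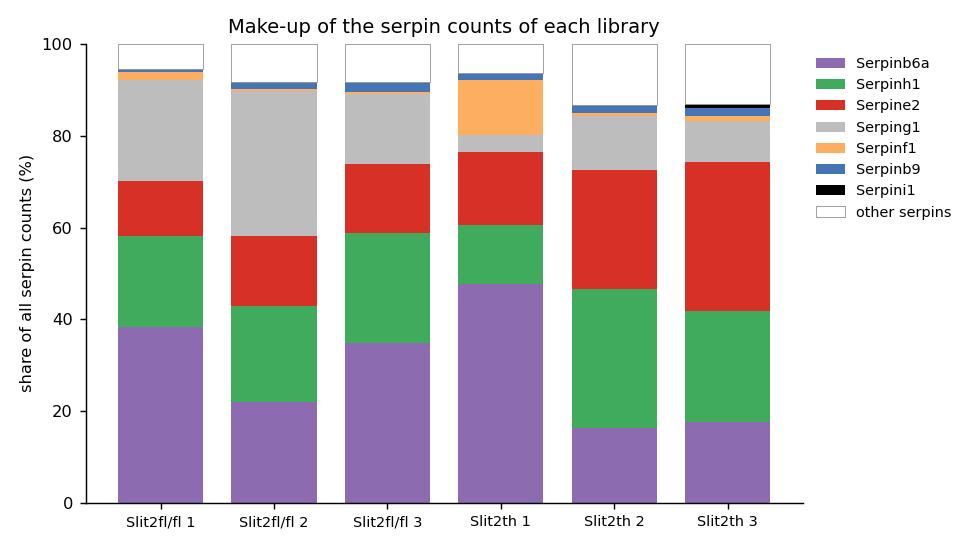
Share of all serpin counts taken by the 6 members, Serping1 and the remaining serpins together, with 1 stacked bar per library. Serpinb6a and Serpinf1 are largest in Slit2th replicate 1 (47.7% and 12.1%), and Serpine2 is largest in Slit2th replicates 2 and 3 (25.96% and 32.6%).

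Among 6 libraries, the genes most like each member were found by the root mean square difference of log2 CPM, centred on each gene's mean, among tested genes with a mean of at least 10 CPM. Serpine2 was nearest to Ankhd1 (0.052), Bag4 (0.099) and Tm2d1 (0.11). Serpinh1 was nearest to Heatr5b (0.056), Mcl1 (0.056) and Hspa5 (0.059), the last the main chaperone of the endoplasmic reticulum, at 779 to 1012 CPM. Serpinf1 was nearest to Dpysl4 (0.177), Slc37a2 (0.343) and Cyb561d1 (0.35), each highest in Slit2th replicate 1, at 70.4, 56.3 and 91.5 CPM. Serpinb6a was nearest to the ribosomal protein gene Rps13 (0.138), Ttc21b (0.139) and Bag1 (0.159). Serpinb9 was nearest to Lpar4 (0.085), Nars (0.116) and Capza2 (0.137), and Serpini1 to Gne (0.4), Tril (0.42) and Mex3a (0.423). Between members, the closest were Serpine2 and Serpinh1 (0.442) and the farthest Serpinf1 and Serpini1 (2.195), so no pair of members was as alike as each was to its nearest gene. Over 6 libraries and 7478 genes this is a description only, and each library shares depth and composition with every gene compared.

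**Figure D5:**
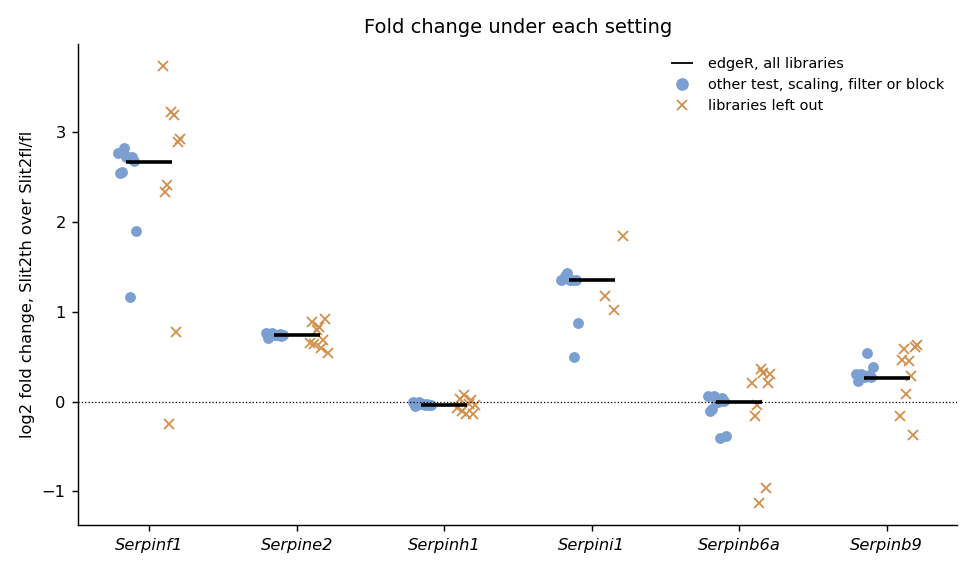
Log2 fold change of each member in edgeR's fit with all libraries (bars), with other tests, scalings, filters or the replicate block (circles), and with libraries left out (crosses). Serpine2 stays between 0.54 and 0.93, Serpinh1 between -0.14 and 0.08, and Serpinf1 and Serpinb6a spread below and above 0.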

How the data were processed

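Per the study's methods, TruSeq libraries were aligned by HISAT2 to the mm10 build. The authors deposited whole-number read counts per gene, not normalized; the labels' processing notes list the build GRCm39, and the counting program, strand setting and annotation release are not given in the sources used here. Gene positions, exon lengths and transcript sequences were taken from GENCODE M21 (GRCm38), in which 20166 of 20173 identifiers were found. Genes with at least 1 CPM in at least 3 libraries were tested across all genes with edgeR 4.0.16 (TMM, quasi-likelihood test, no covariates; R 4.3.3), with limma 3.58.1 and DESeq2 1.42.0 among the alternatives. The standard error of a fold change is its size divided by the root of the F statistic. Log2 CPM used a prior count of 2. On simulated counts the test recovered most of the very large changes, with some false calls, but none of the smaller ones, which were still several-fold. A lack of calls therefore does not show a lack of difference. The biological coefficient of variation was 50.4%. Members and gene lists were chosen with earlier results of these data known. Genes were named by rule: the members, other serpins with a mean of at least 10 CPM, the 4 most abundant genes of each pathway list and any stated target, receptor or client of a member, the 3 tested genes most like each member, and Slit2; some genes that this rule covers are not reported here. Fkbp10, Nqo2, Ripk1 and 1110046J04Rik were added after their values were seen. The alternatives were other scalings, tests and filters, a replicate block, and libraries left out; list counts without replicate 1 were added after seeing the data.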

Additional observations from a re-analysis of the deposited data

How the results depend on the processing

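Over all genes, 34 passed with DESeq2, 17 with edgeR's exact test, 46 with its likelihood ratio test and 7 without the filter, against 0 in edgeR's quasi-likelihood test; the cause was not tested. With libraries left out the count ran from 0 to 377 of 11473 (3.29%), the latter without replicate 1 of both groups, and 0 to 1 members passed (Serpinb6a, without replicate 1 of both groups). Serpine2 kept its sign in all 19 alternatives (0.54 to 0.93 with libraries left out). Serpini1 was not tested in 7 alternatives, among them each without Slit2th replicate 3, which holds most of its counts, so its sign was not checked there. With libraries left out the log2 fold change was -0.25 to 3.74 for Serpinf1, -0.137 to 0.0781 for Serpinh1, -1.13 to 0.368 for Serpinb6a and -0.374 to 0.635 for Serpinb9. That of Serpinb6a, -0.008, was also of the other sign with RLE size factors (0.063), DESeq2 (0.0639), no filter (0.0398) and a CPM of at least 1 in all libraries (0.00267). Limma-voom gave 1.17 for Serpinf1, 0.495 for Serpini1 and -0.404 for Serpinb6a.

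Same-numbered libraries correlated at 0.292, 0.245 and 0.0808 in their deviations from the group means across genes, and Slit2th replicate 3 correlated best with Slit2fl/fl replicate 2 (0.255), so the numbers were not taken to pair the libraries. With the replicate block 0 genes passed (1614 at an unadjusted p under 0.05), and the log2 fold changes were 1.90 for Serpinf1, 0.738 for Serpine2, -0.0424 for Serpinh1, 0.878 for Serpini1, -0.387 for Serpinb6a and 0.383 for Serpinb9.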
